A study of Homo sapiens with 18 samples.

Results

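Interferon-stimulated genes are genes that cells switch on when they sense virus or interferon. A panel of 43 such genes, chosen by gene symbol, was followed through RNA sequencing of SJSA-1 (SJSA) osteosarcoma cells, an established line with amplified MDM2 and CDK4. All 43 symbols were found among the 23368 gene rows of the deposited tables. They comprised 10 sensors and transcription factors and 33 effectors. Each of the 6 groups held 3 replicates of cells grown without added interferon or virus, as far as the protocols state. DMSO was the solvent control. Nutlin, an antagonist of MDM2 that stabilizes p53, was given at 20 µM for 6 h. PD0332991 (Palbociclib), an inhibitor of CDK4 and CDK6, was given at 10 µM for 30 h (PD30) or for 24 h with removal for the rest of the schedule (PD24). N+PD30 and N+PD24 received Nutlin during the last 6 h of either PD0332991 schedule. The study calls the replicates biological triplicates, and all come from 1 cell line, so that the p-values measure the spread between cultures of that line.

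In the textbook scheme, RNA helicases such as RIG-I (DDX58) and MDA5 (IFIH1) and the endosomal receptor TLR3 detect foreign RNA and cause interferon to be secreted. Interferon then acts through its receptor and the kinases JAK1 and TYK2 on STAT2, which joins IRF9 in the factor ISGF3. ISGF3 and the related IRF proteins bind interferon-stimulated response elements in the promoters of the effectors, whose products degrade viral RNA, block its translation, keep virus out of the cell or tag proteins with ISG15. Many cells, tumor cells included, hold a basal level of these transcripts in the absence of infection.

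Total counts ran from 12704845 to 40231041 per library, lowest in N+PD30 replicate 1. Levels are given as counts per 1000000 counts of the same library (CPM), in the order of replicates 1, 2 and 3. CDKN1A, a p53 target, measured 219, 190 and 143 CPM in DMSO and 3859, 4144 and 3949 CPM in Nutlin, and MKI67, a proliferation marker, measured 642, 656 and 755 CPM in DMSO and 6.61, 4.64 and 4.43 CPM in PD30. Of the osteoblast lineage markers, RUNX2, ALPL, COL1A1, COL1A2 and SPARC were expressed in all libraries, whereas SP7 and BGLAP were at most at 0.244 CPM. The T cell and B cell markers CD3E and MS4A1 were at 0 CPM in most libraries and at most at 0.0541 CPM. The common leukocyte marker PTPRC was at 0 CPM in PD24 replicate 2 and N+PD30 replicate 1 and at most at 0.492 CPM. ITGAM lay between 0.0834 and 3.022 CPM. The other immune cell markers were present in all libraries. CD68 lay between 13.59 and 36.4 CPM, CD14 between 2.486 and 15.03 CPM, and LYZ between 1.181 and 2.978 CPM.

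All 43 genes had more than 3 counts in at least 1 library. Mean levels in DMSO ran from 0.342 CPM for RSAD2 (viperin) to 150 CPM for IFI16, a DNA sensor, on a scale that is not divided by transcript length, so that levels are compared between groups and not between genes. Of 9 interferon genes, IFNG and IFNK had no count in any library, against a limit of 3 counts, which corresponds to 0.0746 to 0.236 CPM depending on the library. IFNB1, IFNA1, IFNW1 and the lambda interferons stayed at or under 0.184 CPM, and IFNE, the most abundant, lay between 0.133 and 0.792 CPM and passed the test in PD30 against DMSO (log2 fold change 1.02 ± 0.36 (SE), adjusted p = 0.0396), in N+PD24 against Nutlin (log2 fold change 1.35 ± 0.29 (SE), adjusted p = 0.00559) and in N+PD24 against PD24 (log2 fold change 1.03 ± 0.34 (SE), adjusted p = 0.0344). The receptor and kinase genes IFNAR1, JAK1 and TYK2 were expressed in every group, with DMSO values of 101, 111 and 106 CPM for IFNAR1, 295, 296 and 326 CPM for JAK1 and 83.7, 69.5 and 64.3 CPM for TYK2. In bulk RNA, fewer cells that express a gene and less RNA per cell cannot be told apart.

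**Figure D1:**
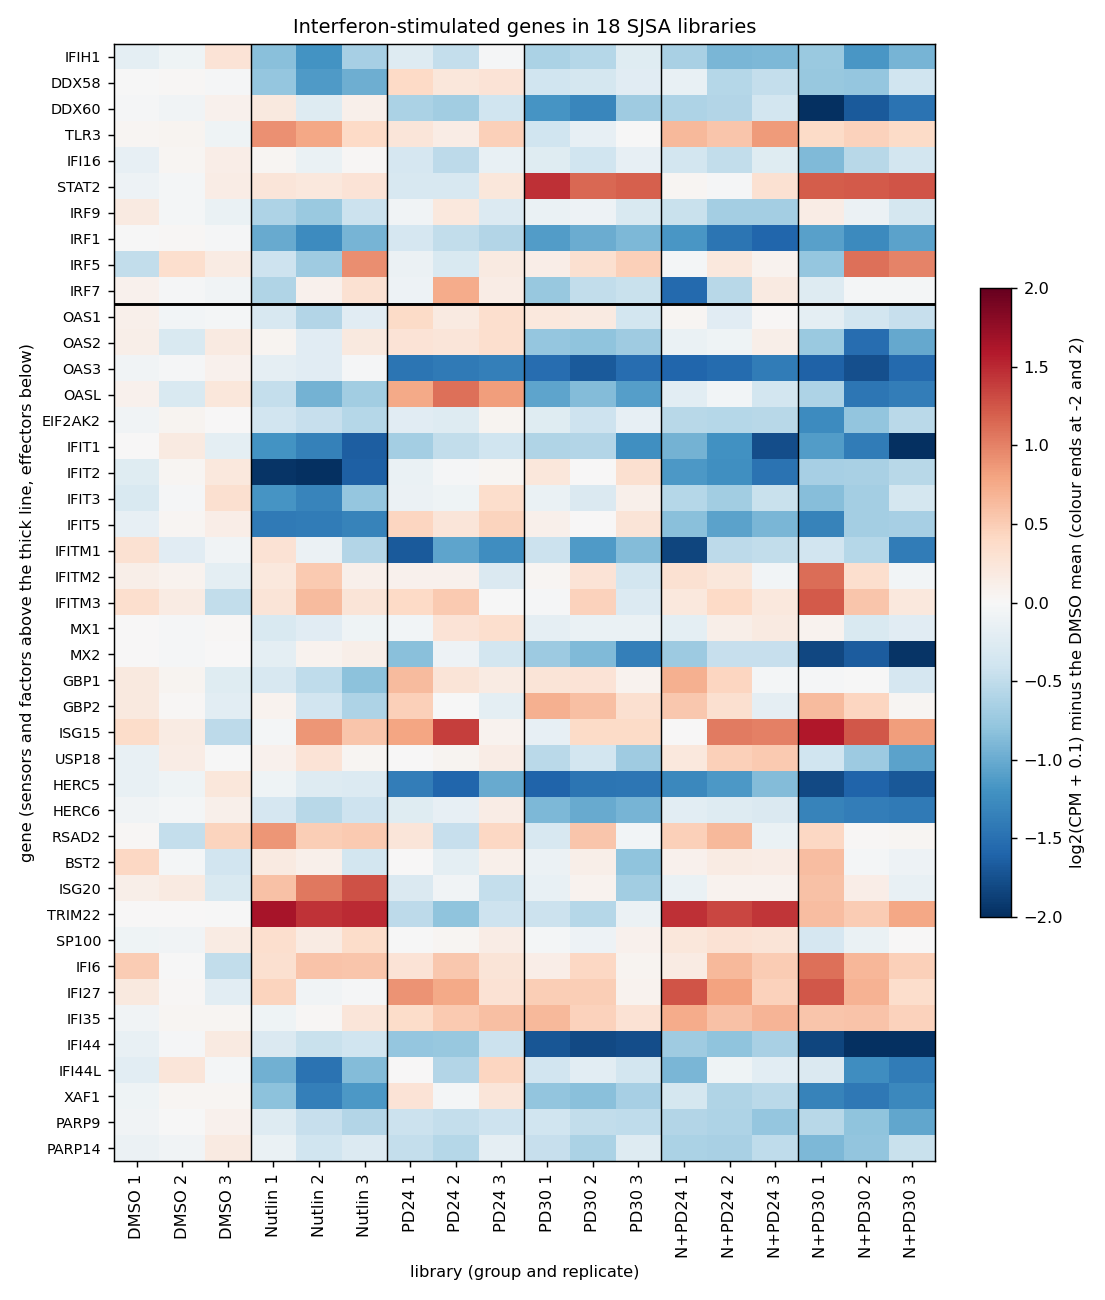
Each row is a gene and each column a library; the color gives log2(CPM + 0.1) minus the mean of the 3 DMSO libraries, from blue (lower) to red (higher). The IFIT rows are blue in the Nutlin columns, the OAS3, HERC5 and IFI44 rows are blue in PD30 and N+PD30, and the TRIM22 row is red in Nutlin and N+PD24.

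Nutlin split the panel. At an adjusted p under 0.05, 6 of 43 genes were higher and 12 were lower than in DMSO. The share of lower genes was 27.9% of the panel, beside a background of 28.0% of all 15766 genes tested, and the share of higher genes was 14.0%, beside 26.6%. Neither share exceeded its background, and the median log2 fold change was -0.02, beside 0.03 over all genes. Scaling by the upper quartile moved the split to 12 higher and 10 lower, and scaling by total counts moved it to 5 higher and 16 lower. The 15766 genes moved likewise, to 5227 higher and 3645 lower and to 3151 higher and 5439 lower.

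All 4 IFIT genes fell. These genes lie side by side on chromosome 10 and encode proteins that hold foreign RNA. IFIT2 (chr10:91043451-91069028 on GRCh37) measured 6.15, 7.46 and 8.44 CPM in DMSO and 1.80, 1.43 and 2.29 CPM in Nutlin. The groups did not overlap, and the fall was the largest in the panel, at 3.67-fold (log2 fold change -1.88 ± 0.20 (SE), adjusted p = 5.1e-05). IFIT1, which recognizes RNA without cap methylation, went from 8.85, 10.0 and 7.66 CPM to 3.77, 3.40 and 2.73 CPM (log2 fold change -1.29 ± 0.18 (SE), adjusted p = 0.000255). IFIT5, which binds RNA with a triphosphate end, went from 36.4, 41.8 and 44.5 CPM to 15.1, 15.3 and 16.0 CPM (log2 fold change -1.27 ± 0.11 (SE), adjusted p = 1.4e-05). IFIT3, the partner of IFIT1, went from 21.4, 26.1 and 33.2 CPM to 11.7, 10.6 and 15.5 CPM (log2 fold change -0.97 ± 0.18 (SE), adjusted p = 0.00132). Groups were apart in all 4 cases. LIPA, on the opposite strand, shares 1.5% of the annotated exon bases of IFIT2 and 1.9% of those of IFIT3, and a long noncoding RNA on the same strand shares 12.1% of those of IFIT2.

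Among sensors and factors, 4 of 10 fell under Nutlin and 2 rose, and among effectors 8 of 33 fell and 4 rose, beside 28.0% lower and 26.6% higher of all genes tested. DDX58 (RIG-I) dropped from 9.76, 10.0 and 9.70 CPM in DMSO to 5.74, 4.43 and 4.94 CPM in Nutlin (log2 fold change -0.84 ± 0.15 (SE), adjusted p = 0.000941). IFIH1 (MDA5) dropped from 4.88, 5.27 and 6.82 CPM to 3.08, 2.40 and 3.50 CPM (log2 fold change -0.80 ± 0.20 (SE), adjusted p = 0.00641). The groups did not overlap for either of these cytoplasmic RNA helicases. IRF1, a factor that interferon-gamma induces, was 1.92-fold lower, from 46.8, 47.9 and 46.3 CPM to 23.2, 19.5 and 24.5 CPM (log2 fold change -0.94 ± 0.11 (SE), adjusted p = 5.7e-05), and IRF9, the DNA-binding subunit of ISGF3, fell by less (log2 fold change -0.48 ± 0.14 (SE), adjusted p = 0.0141). DDX58 shares 43.2% of its annotated exon bases with another protein-coding gene model on the same strand. Whether that model was in the annotation used for counting is not stated, so that the DDX58 reads may be uncertain. IRF1 shares 22.9% with genes on the opposite strand, and IRF9 23.9% with a transcript on the same strand. TLR3 moved the other way, from 12.1, 12.2 and 11.1 CPM to 22.4, 20.2 and 15.7 CPM (log2 fold change 0.85 ± 0.16 (SE), adjusted p = 0.00128). STAT2 rose slightly (log2 fold change 0.37 ± 0.09 (SE), adjusted p = 0.00698). The helicase DDX60, IFI16, IRF5 and IRF7 did not pass the test, with log2 fold changes of 0.15, 0.10, 0.21 and 0.10.

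The strongest rise of the panel was that of TRIM22, a tripartite motif ubiquitin ligase, which measured 101, 102 and 100 CPM in DMSO and 317, 275 and 284 CPM in Nutlin, 3.15-fold higher (log2 fold change 1.66 ± 0.09 (SE), adjusted p = 1.3e-06). ISG20, an exonuclease, rose from 2.42, 2.53 and 1.78 CPM to 3.38, 4.70 and 5.49 CPM (log2 fold change 1.13 ± 0.22 (SE), adjusted p = 0.00196). Neither gene's groups overlapped. The PML body component SP100 and the entry blocker IFITM2 also passed the test, with smaller log2 fold changes of 0.41 and 0.41 and with DMSO and Nutlin libraries that overlapped. IFITM2 and IFITM3 are close paralogs, so that the assignment of reads between them is uncertain. XAF1, an antagonist of the apoptosis inhibitor XIAP, fell from 18.1, 19.8 and 19.8 CPM to 10.8, 7.43 and 8.66 CPM (log2 fold change -0.97 ± 0.15 (SE), adjusted p = 0.000461), while 38.3% of its annotated exon bases are shared with a transcript on the opposite strand. IFI44L fell as well (log2 fold change -1.07 ± 0.26 (SE), adjusted p = 0.00659), at 15 to 54 counts per library, and so did GBP1 (-0.42) and EIF2AK2, the kinase PKR (-0.34). The synthetase OAS3 (-0.02 ± 0.09 (SE, adjusted p = 0.864)), the ISG15 ligase HERC5 (-0.08 ± 0.13 (SE, adjusted p = 0.607)) and the GTPase MX2 (0.13 ± 0.17 (SE, adjusted p = 0.531)) did not pass the test. IRF9 (DMSO 1, Nutlin 2), EIF2AK2 (DMSO 2), IFITM2 (DMSO 2, DMSO 3, Nutlin 2) and GBP1 (DMSO 1, DMSO 2, Nutlin 2, Nutlin 3) lost significance when the replicate in brackets was left out. Upper-quartile scaling (EIF2AK2, GBP1), scaling by total counts (IFITM2) and all 15 count libraries in the fit (IFITM2) also ended calls.

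**Figure D2:**
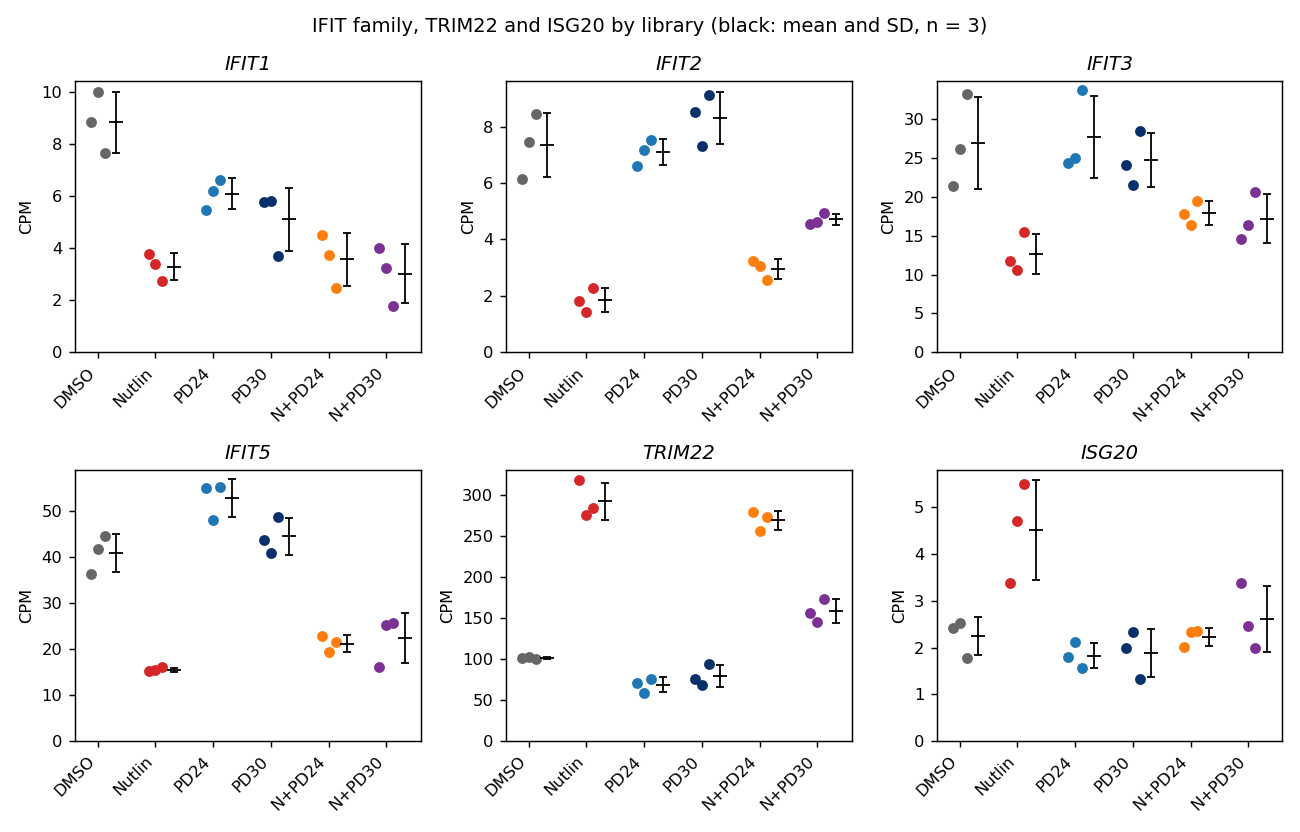
Points are the CPM of single libraries in the 6 groups and black marks are the mean and SD of 3 replicates. The lowest library of each IFIT gene received Nutlin, and TRIM22 is at 256 CPM or more in Nutlin and N+PD24, where DMSO is at most at 102 CPM.

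Continuous PD0332991 lowered more members than it raised. In PD30, 21 of 43 genes were lower than in DMSO and 3 were higher. This was 48.8% lower, beside 25.4% of the 15125 genes tested, and 6.98% higher, beside a background of 22.9%. The median log2 fold change of the panel was -0.29, beside 0.00 over all genes. The 21 lower genes were 4 of 5 sensors, 2 of 5 transcription factors, 4 of 5 RNA-activated enzymes, 3 of 4 genes of the ISG15 system, 4 of 8 other interferon-induced genes, and 1 gene each of the IFIT family, the IFITM family, the GTPases and the other antiviral genes.

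IFI44 showed the largest fall. It measured 14.3, 15.7 and 18.1 CPM in DMSO and 4.82, 4.50 and 4.60 CPM in PD30, 3.49-fold lower (log2 fold change -1.80 ± 0.13 (SE), adjusted p = 4.8e-06). OAS3, a synthetase of the oligoadenylates that activate RNase L, fell from 88.7, 92.2 and 99.2 CPM to 32.3, 29.1 and 32.3 CPM (log2 fold change -1.59 ± 0.08 (SE), adjusted p = 5.0e-07). No PD30 library of either gene reached the lowest DMSO library. Of its relatives next to it on chromosome 12 (chr12:113375856-113414265 for OAS3 on GRCh37), OAS2 fell from 3.67, 2.71 and 3.85 CPM to 1.93, 1.89 and 2.02 CPM (log2 fold change -0.82 ± 0.19 (SE), adjusted p = 0.00506), whereas OAS1, at 3.70, 3.29 and 3.33 CPM and 4, 3.89 and 2.64 CPM, did not pass the test (log2 fold change 0.01 ± 0.19 (SE), adjusted p = 0.970). OASL, a family member without synthetase activity that lies farther along the chromosome, had 19, 12 and 20 counts in DMSO and 6, 9 and 7 counts in PD30 (log2 fold change -1.32 ± 0.32 (SE), adjusted p = 0.00788).

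HERC5, HERC6 and USP18 fell, while ISG15, the ubiquitin-like protein that HERC5 attaches to its targets, did not pass the test (log2 fold change 0.16 ± 0.23 (SE), adjusted p = 0.613). HERC5, the ligase, fell from 22.9, 23.9 and 29.8 CPM to 8.27, 9.15 and 9.28 CPM (log2 fold change -1.53 ± 0.13 (SE), adjusted p = 1.3e-05). Its neighbor HERC6 fell from 11.6, 11.8 and 13.0 CPM to 6.44, 5.98 and 6.33 CPM (log2 fold change -0.97 ± 0.12 (SE), adjusted p = 0.000138). USP18, the protease that removes ISG15 and damps receptor signaling, fell from 24.3, 29.8 and 26.6 CPM to 18.5, 20.7 and 16.4 CPM (log2 fold change -0.55 ± 0.13 (SE), adjusted p = 0.00574). In each case the highest PD30 library lay below the lowest DMSO library. Of the paired MX genes on chromosome 21, MX2 fell from 3.33, 3.26 and 3.33 CPM to 1.96, 1.75 and 1.22 CPM (log2 fold change -1.03 ± 0.20 (SE), adjusted p = 0.00261), and MX1, at 18.2, 17.9 and 18.5 CPM and 16.0, 16.6 and 16.6 CPM, did not pass the test (log2 fold change -0.16 ± 0.10 (SE), adjusted p = 0.192). Whether the paired genes differ from each other in their response was not tested.

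Among the sensors, DDX60 fell from 21.2, 20.5 and 22.9 CPM in DMSO to 9.40, 8.65 and 13.1 CPM in PD30 (log2 fold change -1.07 ± 0.16 (SE), adjusted p = 0.000443), and the falls of IFIH1 (-0.51), DDX58 (-0.35) and IFI16 (-0.28) were smaller. TLR3 did not pass the test (-0.20). IRF1 again came down, to 21.5, 23.7 and 25.0 CPM (log2 fold change -1.02 ± 0.09 (SE), adjusted p = 2.1e-05). STAT2, the partner of IRF9 in ISGF3, rose from 77.1, 80.3 and 91.3 CPM in DMSO to 227, 183 and 190 CPM in PD30, 2.39-fold higher, with no overlap (log2 fold change 1.26 ± 0.10 (SE), adjusted p = 1.0e-05). IRF9 itself did not pass the test (log2 fold change -0.20 ± 0.13 (SE), adjusted p = 0.236). STAT2 lies at chr12:56735381-56753987 on GRCh37 and shares no annotated exon base with another gene. The other rises were those of the guanylate-binding protein GBP2 (log2 fold change 0.53 ± 0.13 (SE), adjusted p = 0.00819) and IFI35 (log2 fold change 0.46 ± 0.12 (SE), adjusted p = 0.00943).

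The remaining falls in PD30 were IFIT1 (-0.81), XAF1 (-0.78), PARP9 (-0.48), PARP14 (-0.46), TRIM22 (-0.37), EIF2AK2 (-0.29), IRF7 (-0.60) and IFITM1 (-1.05). IFITM1 and IRF7 were scarce, with 7 to 23 and 33 to 70 counts per library. IFIH1 (DMSO 2, DMSO 3, PD30 1, PD30 2), DDX58 (DMSO 1, DMSO 2, DMSO 3, PD30 1, PD30 2), IFI16 (DMSO 2, DMSO 3, PD30 1, PD30 2), IRF7 (DMSO 1, DMSO 2, PD30 1, PD30 2), EIF2AK2 (DMSO 2, PD30 1, PD30 2), IFITM1 (DMSO 1, DMSO 3, PD30 2, PD30 3) and TRIM22 (DMSO 2, PD30 1, PD30 2) lost significance when the replicate in brackets was left out. Scaling by total counts (IFIH1), upper-quartile scaling (IFIH1, DDX58, IFI16, EIF2AK2), all 15 count libraries in the fit (DDX58, IFI16, IRF7, EIF2AK2, GBP2) and DESeq2 (IRF7, OASL, IFITM1) also ended calls.

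**Figure D3:**
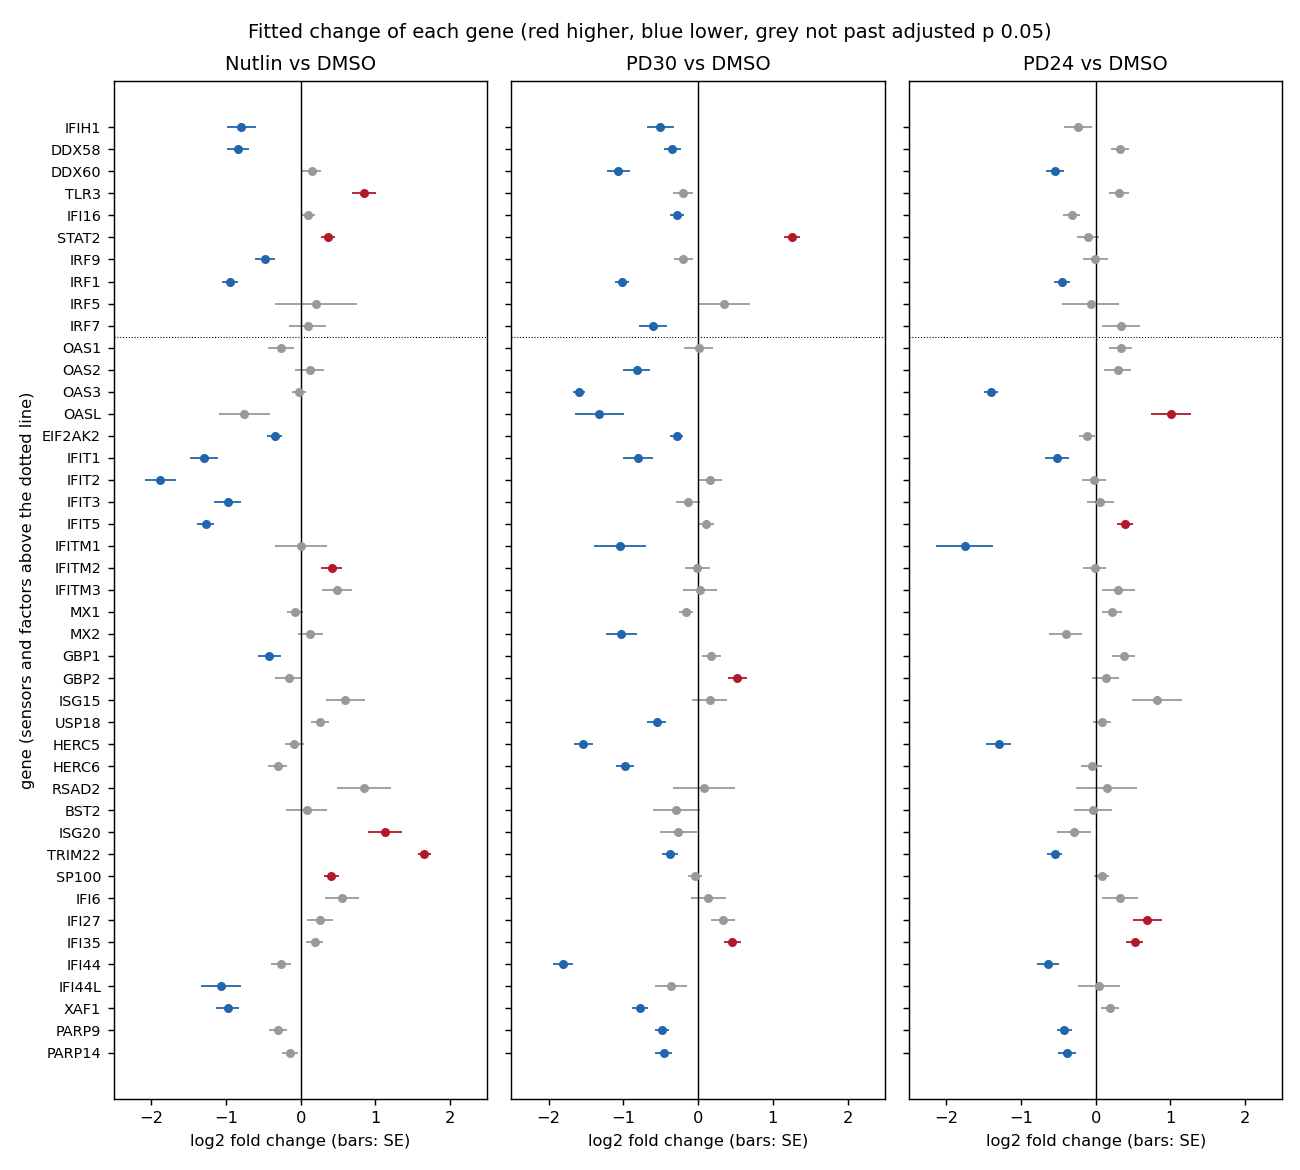
Points are fitted log2 fold changes against DMSO for the 43 genes, with SE bars, in Nutlin (left), PD30 (middle) and PD24 (right); red and blue points passed an adjusted p of 0.05. The IFIT genes stand to the left of 0 in the Nutlin panel and OAS3, HERC5 and IFI44 in both PD0332991 panels. The 3 comparisons share the DMSO libraries.

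When PD0332991 was removed for the last part of the schedule (PD24), 10 members were lower and 4 were higher than in DMSO, or 23.3% and 9.30% of 43, beside backgrounds of 20.8% and 17.5% of 15094 genes. OAS3 was lower than in DMSO, at 33.8, 34.9 and 36.1 CPM (log2 fold change -1.40 ± 0.09 (SE), adjusted p = 6.0e-06), and so was HERC5, at 9.68, 8.43 and 12.6 CPM (log2 fold change -1.30 ± 0.17 (SE), adjusted p = 0.000417). Both genes' PD24 libraries lay far below those of DMSO. IFI44 was lower by less, at 9.30, 9.36 and 11.8 CPM (log2 fold change -0.64 ± 0.15 (SE), adjusted p = 0.00878), and IFITM1 had 3, 5 and 7 counts against 23, 13 and 16 in DMSO (log2 fold change -1.75 ± 0.38 (SE), adjusted p = 0.00661). DDX60 (-0.55), TRIM22 (-0.55), IFIT1 (-0.51), IRF1 (-0.44), PARP9 (-0.42) and PARP14 (-0.39) were also lower. OASL rose, to 29, 30 and 42 counts from 19, 12 and 20 (log2 fold change 1.01 ± 0.27 (SE), adjusted p = 0.0163), and IFI27 (0.69), IFI35 (0.52) and IFIT5 (0.39) rose by less. STAT2 did not pass the test (log2 fold change -0.10 ± 0.15 (SE), adjusted p = 0.622). Without DMSO replicate 2 the number of calls was 7, beside 3902 of 15350 genes. IRF1 (DMSO 2), OASL (DMSO 2), IFIT1 (DMSO 1, DMSO 2, PD24 1, PD24 2), IFIT5 (DMSO 1, DMSO 2, PD24 1), IFI27 (DMSO 2, DMSO 3, PD24 1, PD24 2), PARP9 (DMSO 2) and PARP14 (DMSO 2, DMSO 3, PD24 1, PD24 2) lost significance when the replicate in brackets was left out. All 15 count libraries in the fit (IFIT1) and upper-quartile scaling (PARP14) also ended calls.

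The effect of removal was read by setting PD30 against PD24 in a comparison added after the levels had been seen. In PD30, 10 of 42 tested genes were lower than in PD24 and 1 was higher, 23.8% and 2.38%, beside backgrounds of 12.9% and 12.2% of 15171 genes, with IFITM1 too scarce to be tested. The higher gene was STAT2, at 66.2, 65.9 and 96.6 CPM in PD24 and 227, 183 and 190 CPM in PD30 (log2 fold change 1.36 ± 0.16 (SE), adjusted p = 0.000633). OASL showed the largest difference in the other direction, with 29, 30 and 42 counts in PD24 and 6, 9 and 7 counts in PD30 (log2 fold change -2.33 ± 0.30 (SE), adjusted p = 0.000976). IFI44 was lower in PD30 than in PD24 (log2 fold change -1.17 ± 0.15 (SE), adjusted p = 0.00100), as were OAS2, at 4.07, 4 and 4.28 CPM and 1.93, 1.89 and 2.02 CPM (log2 fold change -1.12 ± 0.17 (SE), adjusted p = 0.00198), and XAF1, at 23.3, 18.8 and 22.8 CPM and 11.1, 10.8 and 12.1 CPM (log2 fold change -0.97 ± 0.13 (SE), adjusted p = 0.00116). HERC6 (-0.92), USP18 (-0.64), DDX58 (-0.67), IRF7 (-0.94), IRF1 (-0.57) and TLR3 (-0.51) were lower too. OAS3 (-0.20 ± 0.10 (SE, adjusted p = 0.193)) and HERC5 (-0.24 ± 0.16 (SE, adjusted p = 0.319)) did not pass the test between the schedules. With the replicate number as a block, 17 members passed, 15 of them lower, beside 6107 of 15171 genes, 3120 of them lower. TLR3 (PD24 1, PD24 3, PD30 1, PD30 2), IRF1 (PD30 1) and IRF7 (PD24 2, PD30 1, PD30 2, PD30 3) lost significance when the replicate in brackets was left out. Scaling by total counts (TLR3) also ended calls.

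**Figure D4:**
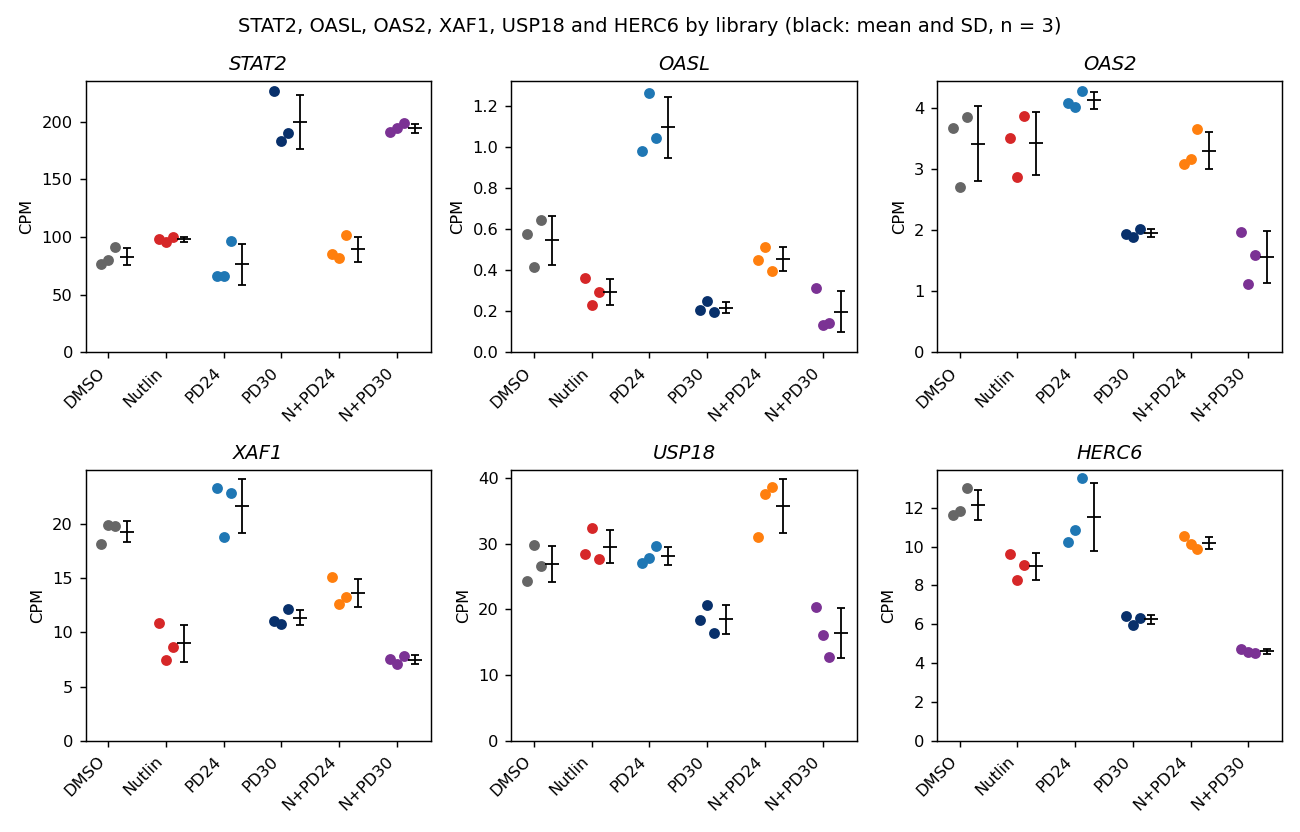
Points are the CPM of single libraries in the 6 groups and black marks are the mean and SD of 3 replicates. STAT2 is at 183 CPM or more in PD30 and N+PD30 and at most at 102 CPM in the other groups, and OAS2, XAF1, USP18 and HERC6 are lower in PD30 than in PD24.

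Promoter sequences are shown for 3 IFIT genes that fell under Nutlin, for OAS3, HERC5 and IFI44, which had the largest falls in PD30, and for STAT2, which had the largest rise there. The stretches are the 180 bases before the annotated start, on the gene's strand, from RefSeq on GRCh38.p14. Capitals mark the ISRE-type motif GAAANNGAA on either strand, which reads TTCNNTTTC on the other.
IFIT1 (chr10:89392443-89392622, plus strand): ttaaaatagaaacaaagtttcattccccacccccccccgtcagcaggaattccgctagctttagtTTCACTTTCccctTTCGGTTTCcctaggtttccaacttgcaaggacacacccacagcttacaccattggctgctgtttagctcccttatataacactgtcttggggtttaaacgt
IFIT3 (chr10:89327817-89327996, plus strand): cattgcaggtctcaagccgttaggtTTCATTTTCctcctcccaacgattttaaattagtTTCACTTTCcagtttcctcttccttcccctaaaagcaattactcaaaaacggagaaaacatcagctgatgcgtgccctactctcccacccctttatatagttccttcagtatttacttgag
IFIT5 (chr10:89414388-89414567, plus strand): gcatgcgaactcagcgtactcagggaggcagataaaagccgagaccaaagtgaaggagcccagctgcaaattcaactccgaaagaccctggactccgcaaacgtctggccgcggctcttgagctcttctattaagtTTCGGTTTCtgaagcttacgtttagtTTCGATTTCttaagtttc
OAS3 (chr12:112938294-112938473, plus strand): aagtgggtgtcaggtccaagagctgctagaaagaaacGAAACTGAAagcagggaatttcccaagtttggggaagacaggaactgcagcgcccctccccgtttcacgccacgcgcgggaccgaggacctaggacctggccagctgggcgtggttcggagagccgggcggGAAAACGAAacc
HERC5 (chr4:88456939-88457118, plus strand): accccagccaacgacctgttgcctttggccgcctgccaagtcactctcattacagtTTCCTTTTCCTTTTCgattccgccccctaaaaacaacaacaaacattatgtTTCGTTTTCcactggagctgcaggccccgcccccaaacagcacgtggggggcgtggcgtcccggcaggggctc
IFI44 (chr1:78649609-78649788, plus strand): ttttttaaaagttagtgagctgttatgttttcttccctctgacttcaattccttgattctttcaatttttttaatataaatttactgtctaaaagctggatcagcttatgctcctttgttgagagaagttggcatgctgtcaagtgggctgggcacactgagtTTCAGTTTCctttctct
STAT2 (chr12:56360108-56360287, minus strand): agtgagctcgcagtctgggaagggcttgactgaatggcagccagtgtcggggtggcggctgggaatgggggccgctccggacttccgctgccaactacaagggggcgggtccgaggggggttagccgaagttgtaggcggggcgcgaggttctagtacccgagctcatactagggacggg

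IFIT1, IFIT3 and IFIT5, which fell under Nutlin, held 2 matches each in these stretches, as did OAS3, which fell under PD0332991. HERC5 held 3 matches, of which the first and the second share bases, and IFI44 held 1. The STAT2 stretch held none. Over the whole window of 250 bases before to 50 bases after the start, 22 of the 34 members with an entry (64.7%) held the motif, beside 8.11% of 35116 promoters. The GAS-type motif TTCNNNGAA was in 10 of 34 (29.4%), beside 7.66%, and the p53 half-site was in 2 of 34 (5.9%), DDX58 and ISG15, beside 6.63%. In 3 members an ISRE-type and a GAS-type match shared bases. The ISRE-type motif was in 7 of the 11 listed genes that were lower under Nutlin, in 9 of the 15 that were lower in PD30, and in 13 of the 17 that did not pass the test in PD30. IFIT2, OAS2, OASL, MX2, TRIM22, USP18, IRF7, IFITM2 and GBP2 had no entry. A match describes letters in this window and not a bound site.

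In the presence of Nutlin, the share of members that continuous PD0332991 lowered lay nearer to its background than without Nutlin. In N+PD30 against Nutlin, 13 of 42 tested members were lower and 6 were higher, 31.0% and 14.3%, beside backgrounds of 24.7% and 24.3% of 15721 genes. The median log2 fold change of the panel was -0.12, beside 0.00 over all genes. Under upper-quartile scaling the split was 4 higher and 15 lower, beside 3358 higher and 4292 lower of 15721 genes. OASL was too scarce to be tested. MX2 fell the most, from 2.88, 3.46 and 3.61 CPM in Nutlin to 0.866, 0.974 and 0.775 CPM in N+PD30 (log2 fold change -1.95 ± 0.24 (SE), adjusted p = 0.000103). IFI44 went from 13.0, 11.7 and 12.1 CPM to 4.41, 3.83 and 2.90 CPM (log2 fold change -1.77 ± 0.20 (SE), adjusted p = 4.9e-05). DDX60 went from 24.5, 18 and 23.0 CPM to 5.35, 6.65 and 7.70 CPM (log2 fold change -1.76 ± 0.18 (SE), adjusted p = 2.3e-05). The groups were apart for all of these. HERC5 went from 24.0, 21.2 and 21.0 CPM to 7.16, 8.27 and 7.80 CPM (log2 fold change -1.55 ± 0.15 (SE), adjusted p = 1.8e-05), OAS3 from 82.1, 79.4 and 91.9 CPM to 30.3, 27.6 and 31.5 CPM (log2 fold change -1.54 ± 0.12 (SE), adjusted p = 3.5e-06), and OAS2 from 3.51, 2.86 and 3.87 CPM to 1.97, 1.11 and 1.6 CPM (log2 fold change -1.22 ± 0.26 (SE), adjusted p = 0.00288). Smaller falls were those of HERC6 (2.01-fold lower) and, on the log2 scale, TRIM22 (-0.93), USP18 (-0.89), ISG20 (-0.85), IFI16 (-0.61), SP100 (-0.48) and PARP14 (-0.48).

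The rises in N+PD30 included IFIT2 and IFIT5, which Nutlin alone had lowered. Both comparisons use the same Nutlin libraries, so that they are not independent. IFIT2 measured 1.80, 1.43 and 2.29 CPM in Nutlin and 4.57, 4.64 and 4.94 CPM in N+PD30 (log2 fold change 1.32 ± 0.22 (SE), adjusted p = 0.000580), still below its level of 6.15, 7.46 and 8.44 CPM in DMSO. IFIT5 rose by less (log2 fold change 0.49 ± 0.17 (SE), adjusted p = 0.0346), and IFIT1 (-0.19 ± 0.30 (SE, adjusted p = 0.632)) and IFIT3 (0.41 ± 0.18 (SE, adjusted p = 0.0735)) did not pass the test. STAT2 rose from 98.2, 95.5 and 100 CPM to 191, 194 and 199 CPM (log2 fold change 0.95 ± 0.11 (SE), adjusted p = 5.3e-05). GBP2 (0.63), ISG15 (0.71) and IFI35 (0.43) also passed, with overlapping groups for GBP2 and ISG15. N+PD30 replicate 1, the library with the fewest counts, had the highest ISG15 and IFITM3 levels of all 18 libraries, at 52.3 and 250 CPM, and without it 5 members were higher and 14 lower. Of all 16085 genes tested without it, 3798 were higher and 3888 lower. IFIT5 (Nutlin 1, Nutlin 2, Nutlin 3, N+PD30 2, N+PD30 3), GBP2 (Nutlin 2, Nutlin 3, N+PD30 1, N+PD30 2), ISG15 (Nutlin 1, Nutlin 3, N+PD30 1, N+PD30 2), ISG20 (Nutlin 2, Nutlin 3, N+PD30 2, N+PD30 3), IFI35 (Nutlin 1, Nutlin 2, N+PD30 2) and PARP14 (Nutlin 1, N+PD30 2) lost significance when the replicate in brackets was left out. Upper-quartile scaling (IFIT5, ISG15), all 15 count libraries in the fit (ISG15) and replicate block (ISG15) also ended calls.

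The effect of Nutlin in the continued presence of PD0332991 was read from N+PD30 against PD30. Here 3 of 40 tested members were higher and 3 were lower, 7.50% and 7.50%, beside backgrounds of 8.84% and 5.64% of 15077 genes. OASL, IFITM1 and RSAD2 were too scarce to be tested. TRIM22 rose from 75.2, 68.3 and 93.5 CPM in PD30 to 156, 144 and 174 CPM in N+PD30 (log2 fold change 1.09 ± 0.13 (SE), adjusted p = 0.00204). TLR3 rose from 8.89, 10.5 and 11.8 CPM to 15.4, 16.3 and 15.3 CPM (log2 fold change 0.69 ± 0.14 (SE), adjusted p = 0.0179), and ISG15 from 15.2, 22.2 and 22.3 CPM to 52.3, 40.5 and 30.5 CPM (log2 fold change 1.14 ± 0.24 (SE), adjusted p = 0.0179). No N+PD30 library overlapped the PD30 libraries in these genes. IFIT5 fell from 43.8, 41.0 and 48.8 CPM to 16.1, 25.3 and 25.8 CPM (log2 fold change -0.89 ± 0.16 (SE), adjusted p = 0.0121), IFIT2 from 8.51, 7.31 and 9.11 CPM to 4.57, 4.64 and 4.94 CPM (log2 fold change -0.72 ± 0.14 (SE), adjusted p = 0.0161), and XAF1 fell as well (log2 fold change -0.51 ± 0.13 (SE), adjusted p = 0.0344). Same-numbered libraries of these groups tended to deviate together. PD30 replicate 2, however, correlated more with another N+PD30 library (0.34) than with N+PD30 replicate 2 (0.30). With the replicate block 14 members passed, 6 higher and 8 lower, among them all 4 IFIT genes. The block called 4375 of 15077 genes, 2250 higher and 2125 lower. The number passing was 1 without PD30 replicate 1, 2 without N+PD30 replicate 2 and 12 without N+PD30 replicate 3. These fits called 583 of 15372, 625 of 15282 and 3384 of 15317 genes. TLR3 (PD30 1, PD30 2, N+PD30 2), IFIT2 (PD30 1, PD30 3, N+PD30 2), IFIT5 (PD30 1), ISG15 (PD30 1, N+PD30 2) and XAF1 (PD30 1, PD30 2, PD30 3, N+PD30 1, N+PD30 2) lost significance when the replicate in brackets was left out.

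Whether Nutlin acted differently with and without continuous PD0332991 was tested by an interaction term over 12 libraries. It was positive for 4 of 43 members and negative for 2, 9.30% and 4.65%, beside backgrounds of 12.8% and 7.03% of 16113 genes. A positive term here meant a smaller fall or no fall under Nutlin in PD30. The term was estimated in 1 fit of all 12 libraries, so that it can differ somewhat from the gap between separately fitted changes. For IFIT2 the log2 fold change with Nutlin was -1.88 in solvent and -0.72 in PD30, and the term was 1.20 ± 0.24 (SE, adjusted p = 0.00418). For IRF1 the changes were -0.94 and -0.05, and the term was 0.94 ± 0.15 (SE, adjusted p = 0.00118), with IRF1 at 22.0, 19.4 and 22.4 CPM in N+PD30. IRF9 (0.70 ± 0.21 (SE, adjusted p = 0.0351)) and DDX58 (0.66 ± 0.20 (SE, adjusted p = 0.0323)) had the same sign. For TRIM22 the rise was 1.66 in solvent and 1.09 in PD30 (-0.51 ± 0.16 (SE, adjusted p = 0.0411)). For MX2 the values were 0.13 and -0.80 (-0.88 ± 0.29 (SE, adjusted p = 0.0467)). Upper-quartile scaling gave 2 positive and 5 negative terms, beside 1283 positive and 2006 negative of 16113 genes. With the replicate block 9 members passed, DDX60, IFIT3 and SP100 among them, beside 4130 of 16113 genes. The number passing was 2 without DMSO replicate 1, DMSO replicate 2 or PD30 replicate 1 and 3 without Nutlin replicate 2 or N+PD30 replicate 2. These fits called 2588, 2342, 2264, 2433 and 2428 of all genes, in that order. DDX58 (DMSO 1, DMSO 2, Nutlin 2, Nutlin 3, PD30 1, PD30 2, N+PD30 3), IRF9 (DMSO 1, DMSO 2, Nutlin 1, Nutlin 2, PD30 1, PD30 3, N+PD30 1, N+PD30 2), MX2 (DMSO 1, DMSO 2, DMSO 3, Nutlin 2, Nutlin 3, PD30 1, PD30 2, N+PD30 1, N+PD30 2, N+PD30 3) and TRIM22 (DMSO 1, DMSO 2, DMSO 3, Nutlin 1, Nutlin 2, PD30 1, PD30 3, N+PD30 2) lost significance when the replicate in brackets was left out. Upper-quartile scaling (DDX58, IRF9), all 15 count libraries in the fit (IRF9, MX2), DESeq2 (MX2) and no filter on low counts (MX2) also ended calls.

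**Figure D5:**
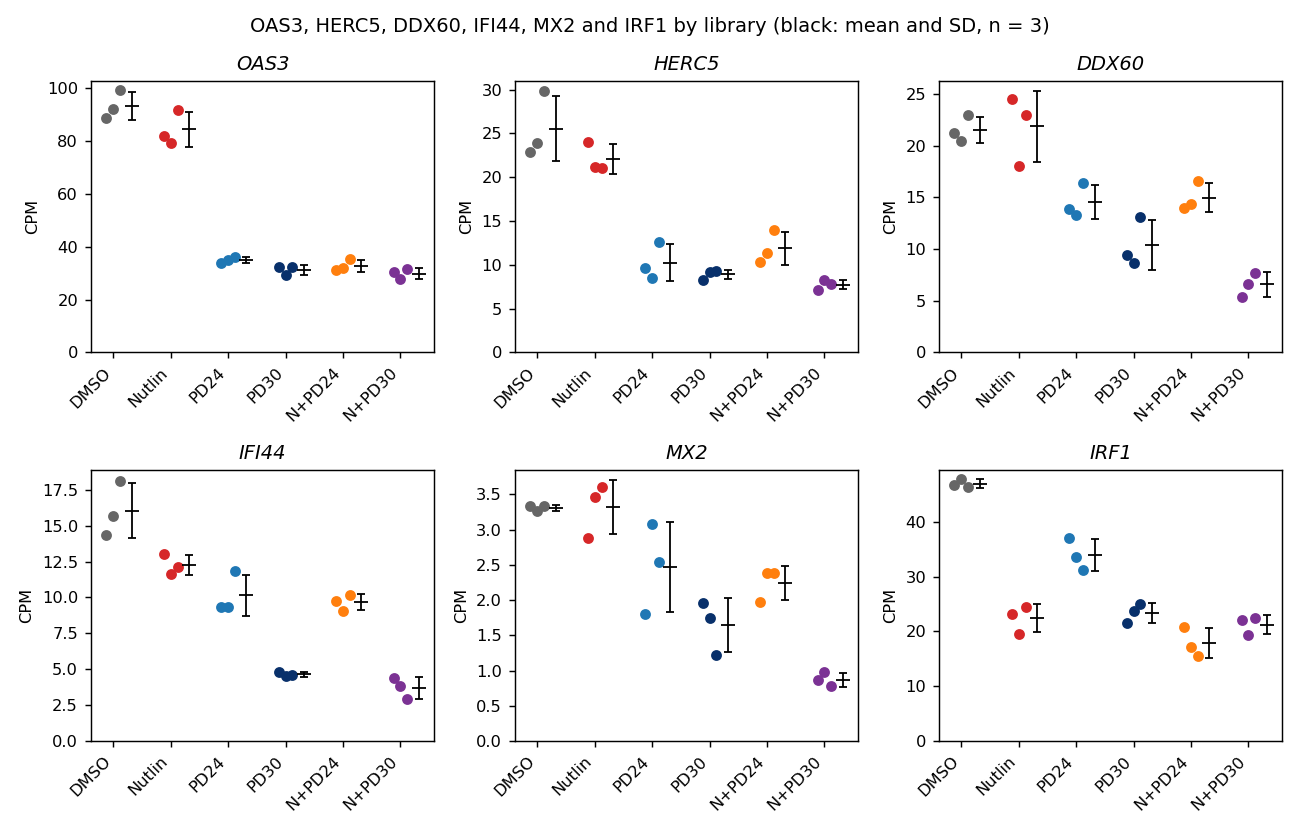
Points are the CPM of single libraries in the 6 groups and black marks are the mean and SD of 3 replicates. OAS3 and HERC5 are low in all 4 groups that received PD0332991, IFI44, DDX60 and MX2 are lowest in N+PD30, and IRF1 is lower in every library with Nutlin or 30 h of PD0332991 than in any DMSO or PD24 library.

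Comparisons with N+PD24 rest on log2(CPM + 0.1) values, which understate the changes of the scarcest genes. Against Nutlin alone, 8 of 43 members were higher in N+PD24 and 4 were lower, 18.6% and 9.30%, beside backgrounds of 16.4% and 17.1% of 16107 genes. The falls were OAS3, at 82.1, 79.4 and 91.9 CPM in Nutlin and 31.1, 31.9 and 35.4 CPM in N+PD24 (log2 fold change -1.30 ± 0.11 (SE), adjusted p = 9.5e-06), HERC5, at 24.0, 21.2 and 21.0 CPM and 10.3, 11.3 and 13.9 CPM (log2 fold change -0.83 ± 0.14 (SE), adjusted p = 0.00149), ISG20 (log2 fold change -0.90 ± 0.20 (SE), adjusted p = 0.00695) and DDX60 (log2 fold change -0.47 ± 0.15 (SE), adjusted p = 0.0308). GBP1 led the rises, from 48.3, 42.2 and 34.2 CPM to 99.0, 81.1 and 58.8 CPM (log2 fold change 0.98 ± 0.22 (SE), adjusted p = 0.00584), followed by IFI27 (0.78), IFIT2 (0.73), XAF1 (0.68), IFI35 (0.67), DDX58 (0.63), IFIT3 (0.58) and IFIT5 (0.51). TRIM22, at 278, 256 and 273 CPM, did not pass the test (log2 fold change -0.05 ± 0.12 (SE), adjusted p = 0.765). With the replicate block 20 members passed, 13 of them higher, beside 8423 of 16107 genes. Without Nutlin replicate 2 the number was 7, beside 3814 of 15890 genes. DDX58 (Nutlin 2, Nutlin 3, N+PD24 1), DDX60 (Nutlin 1, Nutlin 3, N+PD24 1, N+PD24 2), IFIT2 (Nutlin 1, Nutlin 2, N+PD24 1, N+PD24 2), IFIT3 (Nutlin 2), IFI27 (Nutlin 2, Nutlin 3, N+PD24 1, N+PD24 2) and XAF1 (Nutlin 2) lost significance when the replicate in brackets was left out. Quantile normalization (DDX60) also ended calls.

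Nutlin also lowered all 4 IFIT genes after removal of PD0332991. In N+PD24 against PD24, 8 of 42 tested members were lower and 3 were higher, 19.0% and 7.14%, beside backgrounds of 21.1% and 15.7% of 15750 genes, with IFITM1 too scarce to be tested. IFIT5 measured 55.1, 48.0 and 55.2 CPM in PD24 and 22.8, 19.3 and 21.5 CPM in N+PD24 (log2 fold change -1.20 ± 0.14 (SE), adjusted p = 0.000101). IFIT2 measured 6.62, 7.17 and 7.53 CPM and 3.24, 3.06 and 2.56 CPM (log2 fold change -1.14 ± 0.18 (SE), adjusted p = 0.000859). IFIT1 (-0.68 ± 0.24 (SE, adjusted p = 0.0453)) and IFIT3 (-0.51 ± 0.16 (SE, adjusted p = 0.0303)) were lower too, and no N+PD24 library of the 4 genes reached the lowest PD24 library. OASL fell (log2 fold change -1.01 ± 0.25 (SE), adjusted p = 0.00965), and so did IRF1, from 37.1, 33.5 and 31.3 CPM to 20.9, 17.1 and 15.6 CPM (log2 fold change -0.82 ± 0.16 (SE), adjusted p = 0.00263), DDX58 (-0.59) and XAF1 (-0.55). TRIM22 rose 4.27-fold, from 70.6, 58.2 and 76.0 CPM to 278, 256 and 273 CPM (log2 fold change 2.10 ± 0.13 (SE), adjusted p = 3.3e-06), and TLR3 (0.51) and USP18 (0.45) rose by less. Quantile normalization gave 7 higher and 4 lower members, CPM by total alone gave 1 higher and 11 lower, and the replicate block gave 18 calls, 7 higher and 11 lower. Among all 15750 genes, these fits gave 2415 higher and 2771 lower, 1874 higher and 4130 lower, and 3610 higher and 4296 lower. The number was 6 without PD24 replicate 1 or N+PD24 replicate 2 and 7 without N+PD24 replicate 3, beside 4640, 3377 and 4474 of all genes. DDX58 (PD24 1, N+PD24 2, N+PD24 3), TLR3 (PD24 1, PD24 2, N+PD24 1, N+PD24 3), IFIT1 (PD24 1, PD24 2, PD24 3, N+PD24 2, N+PD24 3), IFIT3 (PD24 3, N+PD24 2), USP18 (PD24 1, PD24 2, N+PD24 2, N+PD24 3) and XAF1 (PD24 1, N+PD24 2, N+PD24 3) lost significance when the replicate in brackets was left out. Quantile normalization (DDX58, IFIT1, IFIT3, XAF1), CPM by total only (TLR3, USP18), edgeR on recovered reads (IFIT1) and no filter on low values (IFIT1) also ended calls.

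The interaction of Nutlin with the PD24 schedule passed for none of 43 members in limma, beside backgrounds of 0.510% positive and 0.340% negative of 16484 genes. EdgeR on recovered reads called 0 members, beside 116 of 16301 genes, and a test that passes none does not show equal responses. For IFIT2, the term was 0.73 ± 0.27 (SE, adjusted p = 0.277), and for TRIM22 it was 0.48 ± 0.15 (SE, adjusted p = 0.171). With the replicate block 1 member, GBP1, passed, beside 319 of 16484 genes.

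The schedules of PD0332991 were also compared under Nutlin, likewise in a comparison added after the levels had been seen. In N+PD30 against N+PD24, 10 of 43 members were lower and 2 were higher, 23.3% and 4.65%, beside backgrounds of 15.5% and 16.2% of 15824 genes. IFI44 measured 9.76, 9.07 and 10.2 CPM in N+PD24 and 4.41, 3.83 and 2.90 CPM in N+PD30 (log2 fold change -1.47 ± 0.20 (SE), adjusted p = 0.000715). USP18 measured 30.9, 37.5 and 38.6 CPM and 20.3, 16.2 and 12.7 CPM (log2 fold change -1.23 ± 0.19 (SE), adjusted p = 0.00118), and HERC6 10.5, 10.2 and 9.89 CPM and 4.72, 4.60 and 4.50 CPM (log2 fold change -1.22 ± 0.16 (SE), adjusted p = 0.000575). The groups did not overlap in any of these genes. MX2 (-1.36 ± 0.23 (SE, adjusted p = 0.00196)), DDX60 (-1.28 ± 0.17 (SE, adjusted p = 0.000631)) and OAS2 (-1.15 ± 0.25 (SE, adjusted p = 0.00631)) fell by more than 1 on the log2 scale, and XAF1 (-0.95), TRIM22 (-0.87), HERC5 (-0.69) and SP100 (-0.51) by less. STAT2 was higher in N+PD30, at 191, 194 and 199 CPM against 85.2, 81.5 and 102 CPM (log2 fold change 1.03 ± 0.12 (SE), adjusted p = 0.000334), and IFIT2 was higher by less (log2 fold change 0.57 ± 0.19 (SE), adjusted p = 0.0452). IFIT2 (N+PD24 2, N+PD24 3, N+PD30 1, N+PD30 2, N+PD30 3) and SP100 (N+PD24 2, N+PD30 2) lost significance when the replicate in brackets was left out. EdgeR on recovered reads (IFIT2), no filter on low values (IFIT2), quantile normalization (IFIT2) and replicate block (IFIT2) also ended calls.

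Of the 43 members, 7 passed in none of the 11 comparisons without a replicate block. These were OAS1, MX1, IFITM3, IFI6, the tetherin gene BST2, RSAD2 and IRF5. With the block, in the 4 paired comparisons, IFITM3 and MX1 passed in 2 each and IFI6 in 1. MX1, whose product blocks incoming virus, ranged from 14.7 to 22.9 CPM over the 18 libraries, and OAS1 from 2.27 to 4.52 CPM. RSAD2 and IRF5 were scarce, with 5 to 21 and 2 to 25 counts per library, and a change in them was detectable at this depth only if large. IFITM3 and ISG15 varied within groups, with DMSO values of 134, 119 and 75.8 CPM for IFITM3 and 22.1, 19.1 and 11.8 CPM for ISG15.

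Genes upstream of the panel were listed for context. Of all genes tested, Nutlin raised 26.6% and lowered 28.0%, and PD30 raised 22.9% and lowered 25.4%. In N+PD30 against Nutlin, 24.3% of all genes were higher and 24.7% lower. The lists are short, and whether their counts depart from these shares was not tested. Of 9 receptor and kinase genes, Nutlin raised 1, IL10RB (0.62 ± 0.12 (SE, adjusted p = 0.00132)), and lowered 2, IFNGR2 (-0.64 ± 0.10 (SE, adjusted p = 0.000344)) and IFNAR2 (-0.51 ± 0.12 (SE, adjusted p = 0.00517)), while PD30 raised 1 and lowered 5, among them IFNAR2 (-0.63 ± 0.11 (SE, adjusted p = 0.00154)) and JAK2 (-0.57 ± 0.13 (SE, adjusted p = 0.00649)). Of 13 sensor adaptors and kinases, 11 were tested, and Nutlin lowered 5, led by TICAM1, the adaptor of TLR3 (-1.07 ± 0.25 (SE, adjusted p = 0.00456)), TRAF6 (-0.96 ± 0.14 (SE, adjusted p = 0.000243)) and MYD88 (-0.93 ± 0.11 (SE, adjusted p = 6.7e-05)), and raised none. In PD30, 5 of them were higher and 1 lower, and MAVS, the adaptor of RIG-I and MDA5, went from 206, 203 and 191 CPM to 277, 261 and 277 CPM (0.43 ± 0.07 (SE, adjusted p = 0.000981)). In N+PD30 against Nutlin, 7 were higher and 1 lower, with TICAM1 at 2.35 ± 0.30 (SE, adjusted p = 0.000113). Of 8 STAT and IRF genes outside the panel, Nutlin raised 1, STAT3 (0.81 ± 0.09 (SE, adjusted p = 7.0e-05)), and lowered 2, and PD30 raised 2 and lowered 2, in both cases with IRF8 as the largest fall, from 6.36, 6.21 and 6.30 CPM in DMSO to 1.80, 1.23 and 1.47 CPM in Nutlin and 0.792, 1.14 and 0.795 CPM in PD30. In N+PD30 against Nutlin, 2 were higher and 1 was lower. Of 11 damping proteins, Nutlin raised 3 and lowered 1, PD30 raised 1 and lowered 4, and N+PD30 differed from Nutlin in 3 higher and 3 lower. SOCS3 fell in PD30 (-1.15 ± 0.23 (SE, adjusted p = 0.00241)), and the phosphatase gene PTPN6 rose with Nutlin from 0.151, 0.0694 and 0.0970 CPM to 1.25, 1.20 and 1.66 CPM. The immune cell markers ITGAM, LYZ and CD68 were higher under Nutlin, with ITGAM at 0.121, 0.173 and 0.226 CPM in DMSO and 1.90, 2.43 and 3.02 CPM in Nutlin, while the common leukocyte marker PTPRC stayed at or under 0.492 CPM in all libraries. Of these 7 markers, 3 were higher under Nutlin and 1 was higher in PD30. Their summed level was 24.0 to 33.5 CPM in DMSO, 33.4 to 38.0 CPM in Nutlin, 33.9 to 37.5 CPM in PD24, 32.3 to 45.8 CPM in PD30, 43.8 to 46.1 CPM in N+PD24 and 34.0 to 48.1 CPM in N+PD30, and their part in the results for the panel was not tested.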

How the data were processed

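Total RNA of SJSA cells was sequenced in 18 libraries, 3 in each of 6 groups taken from the sample labels. According to the study's methods and the submitters' processing notes, reads were mapped to hg19 with TopHat and Bowtie2 and counted per gene symbol with HTSeq 0.6.0 under its reverse-stranded setting. For 15 libraries the authors deposited tables of whole read counts per gene, and their depth of 12704845 to 40231041 counts limits precision for scarce genes. For N+PD24 the deposited signal was counts that the authors had divided by a size factor, and 100% of the values came out as whole reads within 0.05 reads. The authors' means and the columns of their own comparisons (fold changes and p-values) were not used. Libraries were made with a TruSeq RNA LT kit, and whether it marks strand is not given in the sources used here, so that reads of genes that overlap on opposite strands may not have been told apart. Nutlin is given as 20 µM in the labels. The scheme in the study that also names a lower dose belongs to immunoblots of other cell lines.

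Count comparisons used the quasi-likelihood test of edgeR 4.0.16 in R 4.3.3, with TMM scaling, filterByExpr and only the groups compared. Comparisons with N+PD24 used limma 3.58.1 with a trend on log2(CPM + 0.1), scaled by a median-ratio factor, for genes at 0.3 CPM or more in at least 3 libraries, and fold changes are on that scale. A call is a Benjamini-Hochberg adjusted p under 0.05 over all genes tested, and both tools were tested on simulated data. Same-numbered libraries were taken as paired in a comparison where, for every pair of its groups, each correlation of their deviations from the group means was over 0.1. This held for N+PD30 and PD30 (0.17, 0.30 and 0.58), N+PD24 and Nutlin (0.55, 0.29 and 0.41), N+PD24 and PD24 (0.32, 0.33 and 0.17) and PD30 and PD24 (0.28, 0.49 and 0.26), from the data and not from a stated design. PD30 replicate 2 correlated more with an N+PD30 library of another number (0.34) than with N+PD30 replicate 2 (0.30). Fits without a block stayed the main ones in all comparisons. In the interaction of Nutlin with PD30, 3 of the 6 pairs of groups met this limit, and in that with PD24 2 of 6, so that neither was taken as paired. Alternatives were DESeq2 1.42.0, other scalings, filters, pseudocounts, all count libraries in 1 fit and leaving out each library.

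Any of the 43 members could be named. Values per library were given to members that passed the test with groups that did not overlap, at most 6 rises and 6 falls per comparison, and to family members beside them. Of the other lists, at most 3 rises and 3 falls were named. Members and lists were chosen with earlier results of these data known. Gene positions are from a GRCh37 annotation, and promoters from RefSeq on GRCh38.p14.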

Additional observations from a re-analysis of the deposited data

Results flagged for a closer look

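By the interaction term of edgeR's quasi-likelihood test, the response to Nutlin differed between solvent and continuous PD0332991 for 6 members. The term was positive for 9.30% and negative for 4.65% of the panel, below the shares of all genes tested, 12.8% and 7.03%. The calls of IFIT2 and IRF1 were kept in all 18 alternatives, those of DDX58 and TRIM22 in 10, of IRF9 in 8 and of MX2 in 5. The term (Nutlin effect in PD30 minus that in DMSO, log2) was 1.20 for IFIT2, 0.94 for IRF1, 0.70 for IRF9 and 0.66 for DDX58. It was -0.51 for TRIM22 and -0.88 for MX2. Groups of 3 libraries were too small for a check of single libraries standing apart.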

How the results depend on the processing

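Of 133 member calls in the 11 comparisons, 81 stayed past the threshold in every alternative that was run, the fold limit aside. Over 1632 recomputed values, 1411 kept direction and significance, 221 kept direction only and none reversed. With an absolute log2 fold change over 1 also asked, the number of members called was 6 for Nutlin, 9 for PD30 and 4 for PD24 against DMSO, 8 for N+PD30 against Nutlin, 2 against PD30, 1 for the interaction with PD30, 1 for N+PD24 against Nutlin, 4 against PD24, 4 for PD30 against PD24 and 7 for N+PD30 against N+PD24. The share of all genes under this fold limit was not computed, so that these counts have no background. With the replicate block, the paired comparisons gave 14 (N+PD30 against PD30), 20 (N+PD24 against Nutlin), 18 (N+PD24 against PD24) and 17 (PD30 against PD24) calls. Over all genes the block called 4375, 8423, 7906 and 6107, in the same order. Where not every pair of groups met the limit for pairing, the block gave 20 calls for Nutlin, 25 for PD30 and 18 for PD24 against DMSO, 22 for N+PD30 against Nutlin, 9 for the interaction with PD30, 1 for that with PD24 and 12 for N+PD30 against N+PD24. The genes called over all were 8572, 8097, 6793, 7598, 4130, 319 and 5329, in the same order. Leaving out 1 library at a time gave 15 to 22 calls for Nutlin, 17 to 24 for PD30, 7 to 17 for PD24, 13 to 21 for N+PD30 against Nutlin, 1 to 12 against PD30, 2 to 5 for the interaction with PD30, 7 to 13 for N+PD24 against Nutlin, 6 to 11 against PD24, 0 for the interaction with PD24, 8 to 12 for PD30 against PD24 and 10 to 13 for N+PD30 against N+PD24. In the same order, the calls over all genes were 7122 to 8661, 5898 to 7135, 3902 to 5850, 6147 to 7686 and 583 to 3384. For the later ones they were 2264 to 3281, 3814 to 5261, 3377 to 4926, 41 to 121, 2178 to 4117 and 2908 to 4841. Scaling moved the median of all genes from 0.03 to -0.10 (total counts) or 0.14 (upper quartile) in Nutlin against DMSO, from 0.06 to -0.12 (upper quartile) in the interaction with PD30, and from 0.01 to -0.10 (total only) in N+PD24 against PD24. The count test on recovered reads called 5483, 5713, 116 and 4959 genes in N+PD24 against Nutlin, against PD24, in the interaction and in N+PD30 against N+PD24, where limma called 5391, 5803, 140 and 5019. The cause of these changes was not tested.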
